A study of Homo sapiens with 12 samples.

Results

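The genes described here encode the subunits of the proteasome and the PSM-named proteins that assemble, activate or inhibit it. They were all genes whose array row carried a single symbol of the families PSMA to PSMG followed by a number, apart from the 3 inducible immunoproteasome subunits PSMB8, PSMB9 and PSMB10. This gave 41 genes of 22395 with a single symbol on the array. All 41 passed the filter on low values and are among the 20572 genes tested. PSMA6, PSMC5, PSMD7 and PSMD13 are not analysed here. RNA came from MDA-MB-231, an established line of triple-negative breast carcinoma cells taken from a pleural effusion. There were 4 groups of 3 arrays: untreated control cells, cells given the cytokine TNFα at 40 ng/ml, cells given the plant flavone apigenin at 40 µM, and cells given both, each for 24 h. According to the labels both agents were made up in HBSS, a buffered salt solution, and given at doses described as sub-lethal. The labels do not say whether the control cells also received this solution. All groups are the same cell line in culture. Nothing in the labels says that the 3 samples of a group were separate cultures, and the p-values below therefore cover no more than the scatter among these samples, possibly a technical one.

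The proteasome degrades proteins tagged with ubiquitin. Its 20S core is a barrel of α rings, which gate the entry, and β rings, in which the subunits PSMB5, PSMB6 and PSMB7 cut proteins. The 19S cap binds ubiquitin chains, removes them and unfolds the substrate with a ring of ATPases. Dedicated chaperones build the particle: PSMG1 pairs with PSMG2 and PSMG3 with PSMG4 to arrange the α ring, while PSMD5, PSMD9 and PSMD10 assemble the ATPase base of the cap. PSME1 to PSME4 are alternative activators that dock on the 20S core, and PSMF1 was described as an inhibitor of it. When proteasomes are inhibited, the transcription factor NFE2L1 induces the subunit genes together through antioxidant-type promoter elements.

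Promoter windows are shown for the 4 genes with the largest called responses to apigenin that had a window, so that the sequence around their start sites can be read beside their expression. The windows are from RefSeq (GRCh38.p14), run 5′ to 3′ on the gene's strand, and cover 250 bases before to 50 bases after the start, 300 bases in all. Capitals mark matches to TGACNNNGC, the core letters of the antioxidant-type element, searched on both strands. PSMG1, PSMD5 and PSME4 were lower with apigenin and lie on the minus strand at chr21:39183402-39183701, chr9:120842873-120843172 and chr2:53970944-53971243. PSMC4 was higher with apigenin and lies on the plus strand at chr19:39970915-39971214.
PSMG1 promoter window: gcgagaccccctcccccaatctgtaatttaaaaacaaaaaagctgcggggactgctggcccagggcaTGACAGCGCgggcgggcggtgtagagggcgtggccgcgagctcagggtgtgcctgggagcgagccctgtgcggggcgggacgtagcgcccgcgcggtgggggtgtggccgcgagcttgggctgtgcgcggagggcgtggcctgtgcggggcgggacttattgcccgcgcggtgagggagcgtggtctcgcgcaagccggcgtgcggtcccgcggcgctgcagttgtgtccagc
PSMD5 promoter window: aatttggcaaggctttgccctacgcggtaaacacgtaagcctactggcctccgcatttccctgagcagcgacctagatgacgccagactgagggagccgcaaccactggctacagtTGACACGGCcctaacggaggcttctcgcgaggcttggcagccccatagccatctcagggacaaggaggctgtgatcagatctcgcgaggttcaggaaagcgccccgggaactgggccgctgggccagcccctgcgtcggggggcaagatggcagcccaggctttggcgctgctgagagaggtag
PSME4 promoter window: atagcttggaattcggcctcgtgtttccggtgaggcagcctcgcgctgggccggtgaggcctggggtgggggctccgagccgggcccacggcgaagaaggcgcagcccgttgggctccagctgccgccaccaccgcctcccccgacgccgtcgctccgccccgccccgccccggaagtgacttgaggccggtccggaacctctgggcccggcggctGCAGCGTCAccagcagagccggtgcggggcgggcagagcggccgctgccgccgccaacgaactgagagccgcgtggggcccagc
PSMC4 promoter window: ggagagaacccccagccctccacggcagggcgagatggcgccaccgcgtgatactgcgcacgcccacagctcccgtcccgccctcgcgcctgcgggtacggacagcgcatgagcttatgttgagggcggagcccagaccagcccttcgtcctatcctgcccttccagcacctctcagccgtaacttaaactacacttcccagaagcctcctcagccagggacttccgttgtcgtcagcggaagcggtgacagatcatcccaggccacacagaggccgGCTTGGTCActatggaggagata
The match lies 183 to 175 bases before the start of PSMG1 and 134 to 126 bases before that of PSMD5. In PSME4 it is on the opposite strand, 34 to 26 bases before the start, and in PSMC4 it is on the opposite strand after the start. A window was found for 35 of the 41 genes, and 41 windows in all. TGACNNNGC occurred in 13 of these 41 windows (31.7%), against 13.3% of all 35116 promoter windows. CCAAT, the box read by NF-Y and here also searched on both strands, occurred in 17 of the 41 windows (41.5%) against 34.6% of all windows. The first motif was in the windows of all 3 genes that fell with apigenin, in 1 of the 2 with a window that rose, and in 9 of the 30 that were not called. A match is a description of the letters and not evidence of a bound factor.

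The proteasome genes were read well above the middle of the array. Their mean over the 12 arrays ran from 1.59 to 9.34 on the log2 scale of the deposited values, against array medians between 2.09 and 2.16. PSMA8, an α subunit of the testis, PSMB11, the β subunit of thymic epithelium, and PSMD4, a ubiquitin receptor of the 19S cap, had means under 3. The row of PSMD4 stayed near the array medians on all arrays, and differences at that level understate a change in RNA. For most genes the 4 group means lay close together. The range of the group means had a median of 0.29 and reached from 0.05 to 1.02, and the median standard deviation (SD) within a group was 0.11. The widest range belonged to PSMG1. Proteasome genes have processed pseudogenes, and whether probes of a row also bind those was not tested.

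The arrays of 1 group correlated at 0.983 to 0.991 and arrays of different groups at 0.966 to 0.990. Of the line's own markers, the mesenchymal genes VIM, CD44, CAV1, AXL and MSN were read between 6.43 and 10.3, and ESR1, PGR and CDH1 stayed under 2.44. GATA3, at 3.65 to 4.67, and EPCAM, at 4.58 to 5.24, were not at the bottom of the scale. Of markers of other cells, PTPRC, CD3E, CD14, VWF and CDH5 stayed under 3, while CD68 was at 9.52 to 9.95 and KDR at 2.87 to 5.52. The summed endothelial markers, at 7.88 to 8.59 in control arrays, were at 9.35 to 9.60 with TNFα. Of these, KDR had group means of 4.09 in control and 5.14 with TNFα, VWF of 1.82 and 1.94, and CDH5 of 2.39 and 2.37, and their part in the TNFα comparisons was not tested. In the apigenin group that sum lay between 7.05 and 8.10, and in the combined group between 7.45 and 8.08. The summed leukocyte markers lay within 14.6 to 15.4 (control), 14.7 to 15.5 (TNFα), 14.2 to 15.3 (apigenin) and 14.4 to 15.2 (both agents). In arrays of a whole culture, fewer cells and less RNA per cell cannot be told apart.

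**Figure D1:**
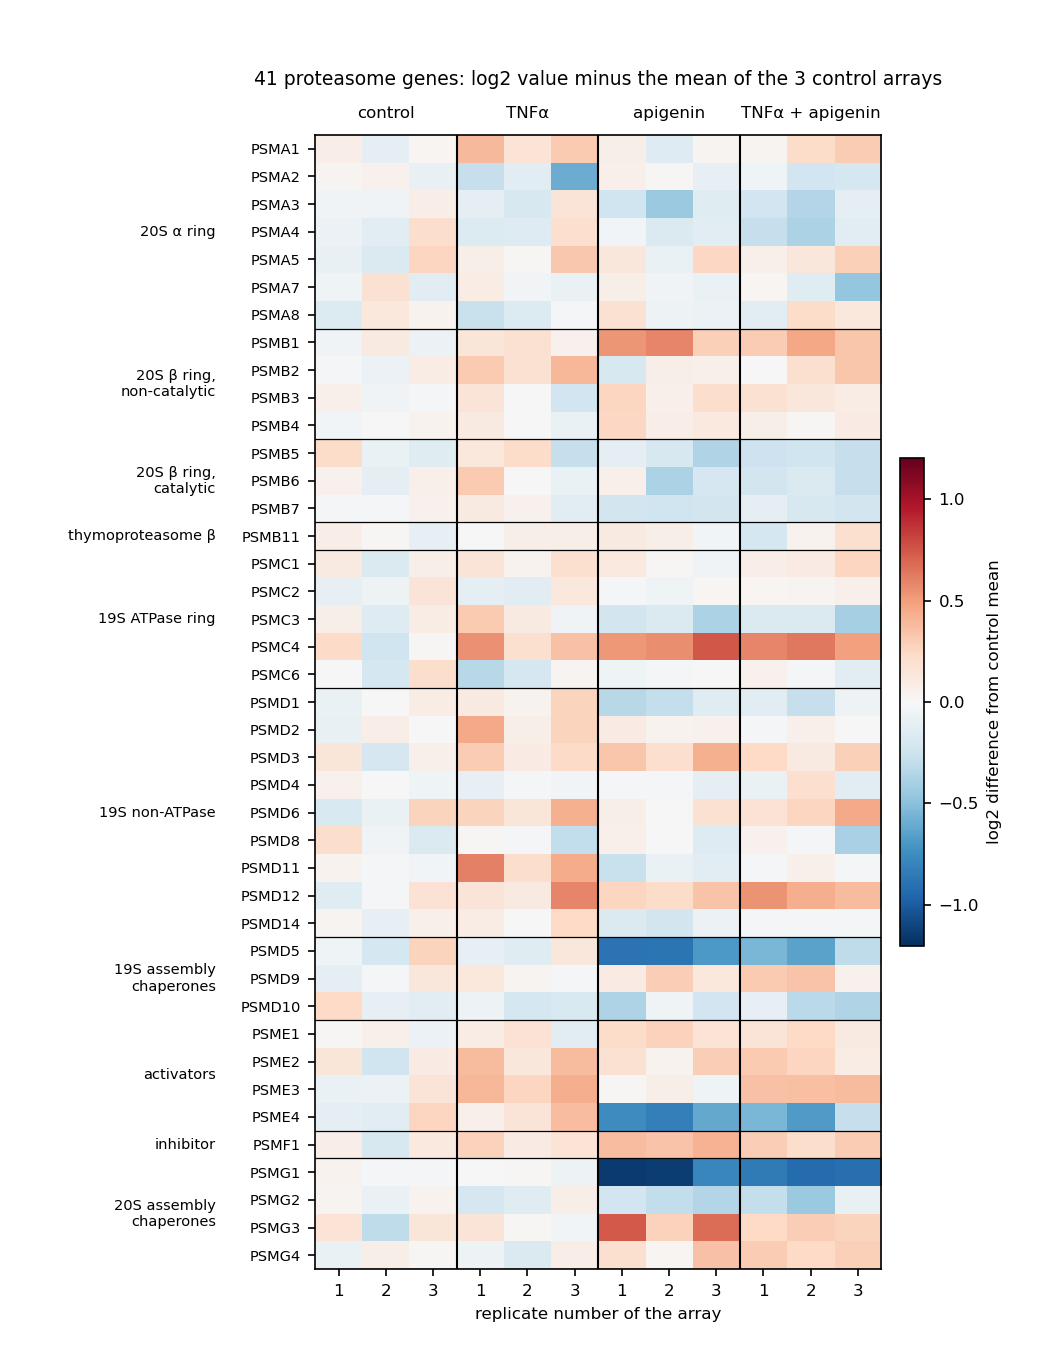
Deposited log2 value of each of the 41 proteasome genes (rows, grouped by role) on each of the 12 arrays (columns, grouped by treatment), minus the gene's mean over the 3 control arrays; the colour scale is in log2 units. Most rows stay pale, and PSMG1, PSMD5 and PSME4 are lower on all 6 arrays with apigenin.

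Apigenin alone changed a small part of the proteasome genes, and in both directions. Compared with control, 7 of the 41 genes were called at an adjusted p below 0.05 (17.1%), with 4 higher and 3 lower, against a background of 11.4% of all genes tested. The background was 4.55% for higher and 6.83% for lower. The genes that fell were the assembly chaperones PSMG1 and PSMD5 and the activator PSME4. Those that rose were the chaperone PSMG3, the ATPase PSMC4, the β subunit PSMB1 and the inhibitor PSMF1. The median difference over all 41 genes was -0.01 against -0.02 over all genes tested, with 19 positive and 22 negative values. At an unadjusted p below 0.05 there were 12 of the 41 genes (29.3%), against 22.5% of all genes. The control and apigenin arrays did not overlap for 18 of the 41 genes (43.9%), against 25.5% of all genes.

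The largest change was that of PSMG1, one partner of the PSMG1–PSMG2 chaperone of the 20S α ring. PSMG1 was at 8.21, 8.14 and 8.15 on the control arrays and at 7.02, 7.03 and 7.39 on the apigenin arrays, on the log2 scale. The groups stood more than 0.7 apart with no overlap. The mean fell from 8.17 ± 0.04 to 7.15 ± 0.21 (SD, n = 3 each), a difference of -1.02 (standard error, SE, 0.12; 95% interval -1.27 to -0.77; limma adjusted p = 0.000108), or 2.03-fold lower. Its partner PSMG2 was at 9.22, 9.10 and 9.22 in control and at 8.95, 8.89 and 8.82 with apigenin. The PSMG2 arrays did not overlap, and its difference of -0.29 did not pass the test (limma adjusted p = 0.167).

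The other α-ring chaperone pair showed values of the opposite sign. PSMG3 was at 5.70, 5.23 and 5.69 in control and at 6.28, 5.82 and 6.21 with apigenin. All 3 apigenin arrays were above all 3 control arrays. PSMG3 rose by 0.56 (SE 0.15; 95% interval 0.24 to 0.89; limma adjusted p = 0.0279). The call was lost without control replicate 2 (difference 0.41, adjusted p = 0.107), without apigenin replicate 1 (0.47, adjusted p = 0.125) and without apigenin replicate 3 (0.51, adjusted p = 0.0946). PSMG4, its partner, went from 3.68 ± 0.08 to 3.87 ± 0.16 (SD, n = 3 each) and was not called (limma adjusted p = 0.394).

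Among the chaperones of the 19S base, PSMD5 changed with apigenin. PSMD5 was at 7.09, 6.93 and 7.41 in control and at 6.25, 6.27 and 6.45 with apigenin. Every apigenin array was below every control array. PSMD5 fell by 0.82 on the log2 scale (SE 0.15; limma adjusted p = 0.00236), 1.76-fold lower. The call was lost in 1 of 18 alternatives, the fit without all arrays of replicate number 1 (adjusted p = 0.103). PSMD9 and PSMD10, the other 2 of the 3 base chaperones, differed by 0.17 and -0.22 and were not called (limma adjusted p = 0.461 and 0.40).

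Of the 4 activators, PSME4, which caps 20S cores in the nucleus, was the only one called with apigenin alone. PSME4 was at 6.87, 6.84 and 7.23 in control and at 6.23, 6.16 and 6.37 with apigenin. The groups did not overlap. PSME4 fell by 0.73 on the log2 scale (SE 0.15; 95% interval -1.04 to -0.41; limma adjusted p = 0.0052), 1.66-fold lower. The call was lost without all arrays of replicate number 1 (adjusted p = 0.108). PSME1 and PSME2, which form the interferon-inducible activator ring, differed by 0.22 and 0.17, and PSME3, the nuclear activator, by 0.01 (limma adjusted p = 0.276, 0.523 and 0.978). PSMF1, the inhibitor, was at 6.72, 6.45 and 6.75 in control and at 7.01, 6.98 and 7.05 with apigenin. Its groups did not overlap. PSMF1 rose by 0.37 (SE 0.11; limma adjusted p = 0.0483). This call was lost in 5 of the 6 fits that left out 1 array, with an adjusted p of 0.0721 and 0.169 without control replicates 1 and 2, and 0.12, 0.0928 and 0.125 without apigenin replicates 1, 2 and 3.

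Within the particle itself, 1 ATPase and 1 β subunit rose. PSMC4, of the 19S ATPase ring, was at 8.11, 7.64 and 7.90 in control and at 8.40, 8.44 and 8.62 with apigenin. All apigenin arrays were above the highest control array. PSMC4 rose by 0.61 (SE 0.14; 95% interval 0.31 to 0.91; limma adjusted p = 0.0116), 1.52-fold. This call was kept in all 6 fits without 1 array. It was lost without all arrays of replicate number 1, of number 2 or of number 3 (adjusted p up to 0.123). The other 4 ATPases were not called, with PSMC3 at -0.26 (limma adjusted p = 0.261). PSMB1, a non-catalytic β subunit, was at 8.39, 8.54 and 8.37 in control and at 8.96, 9.02 and 8.72 with apigenin. Its groups did not overlap. PSMB1 rose by 0.47 (SE 0.12; limma adjusted p = 0.018). The call was lost without control replicate 1 or 3 (adjusted p = 0.06 and 0.0595) and without apigenin replicate 1 or 2 (adjusted p = 0.0729 and 0.0748).

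The catalytic subunits were not called. PSMB5, the chymotrypsin-like site, was at 7.96, 7.65 and 7.59 in control and at 7.62, 7.54 and 7.37 with apigenin. Its arrays overlapped, with a difference of -0.23 (95% interval -0.54 to 0.09; limma adjusted p = 0.413). PSMB6, the caspase-like site, had a difference of -0.17 (95% interval -0.47 to 0.13; limma adjusted p = 0.537), also with overlapping arrays. PSMB7, the trypsin-like site, was at 8.10, 8.09 and 8.17 in control and at 7.90, 7.88 and 7.90 with apigenin, which did not overlap. Its difference was -0.23 (limma adjusted p = 0.221). The 7 α subunits had differences from -0.28 to 0.10 and the 9 non-ATPase subunits of the 19S cap from -0.25 to 0.32, with none called in either role. Among the 34 genes not called, the 95% intervals ran from -0.56 to 0.59, so that 2-fold changes of the deposited values lay outside each of them. This holds for the deposited values and does not by itself exclude a 2-fold change in RNA, above all for PSMA8, PSMB11 and PSMD4, read near the bottom of the scale.

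Without apigenin replicate 1 the count of called genes went from 7 to 4, with 1 higher and 3 lower. The median of 173 small nucleolar RNA genes, a class of short non-coding RNAs, was at 5.69, 5.44 and 5.33 in control and at 6.34, 5.77 and 6.09 with apigenin. With this median as a covariate, 3 of the 41 genes were called (PSMC4, PSMD5 and PSMG1), and PSME4 had a difference of -0.65 with an adjusted p of 0.0538. The median itself did not overlap between control and apigenin arrays. Fitting it can therefore take away part of the treatment difference, and a call lost in this fit does not show that a gene was unchanged. In a fit of only these 6 arrays, PSMB1, PSMF1 and PSMG3 lost their calls (adjusted p = 0.0667, 0.128 and 0.0929). The share of all genes called in these and later alternative fits is not given here. The counts therefore do not tell a change of proteasome genes from a general change in calls.

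**Figure D2:**
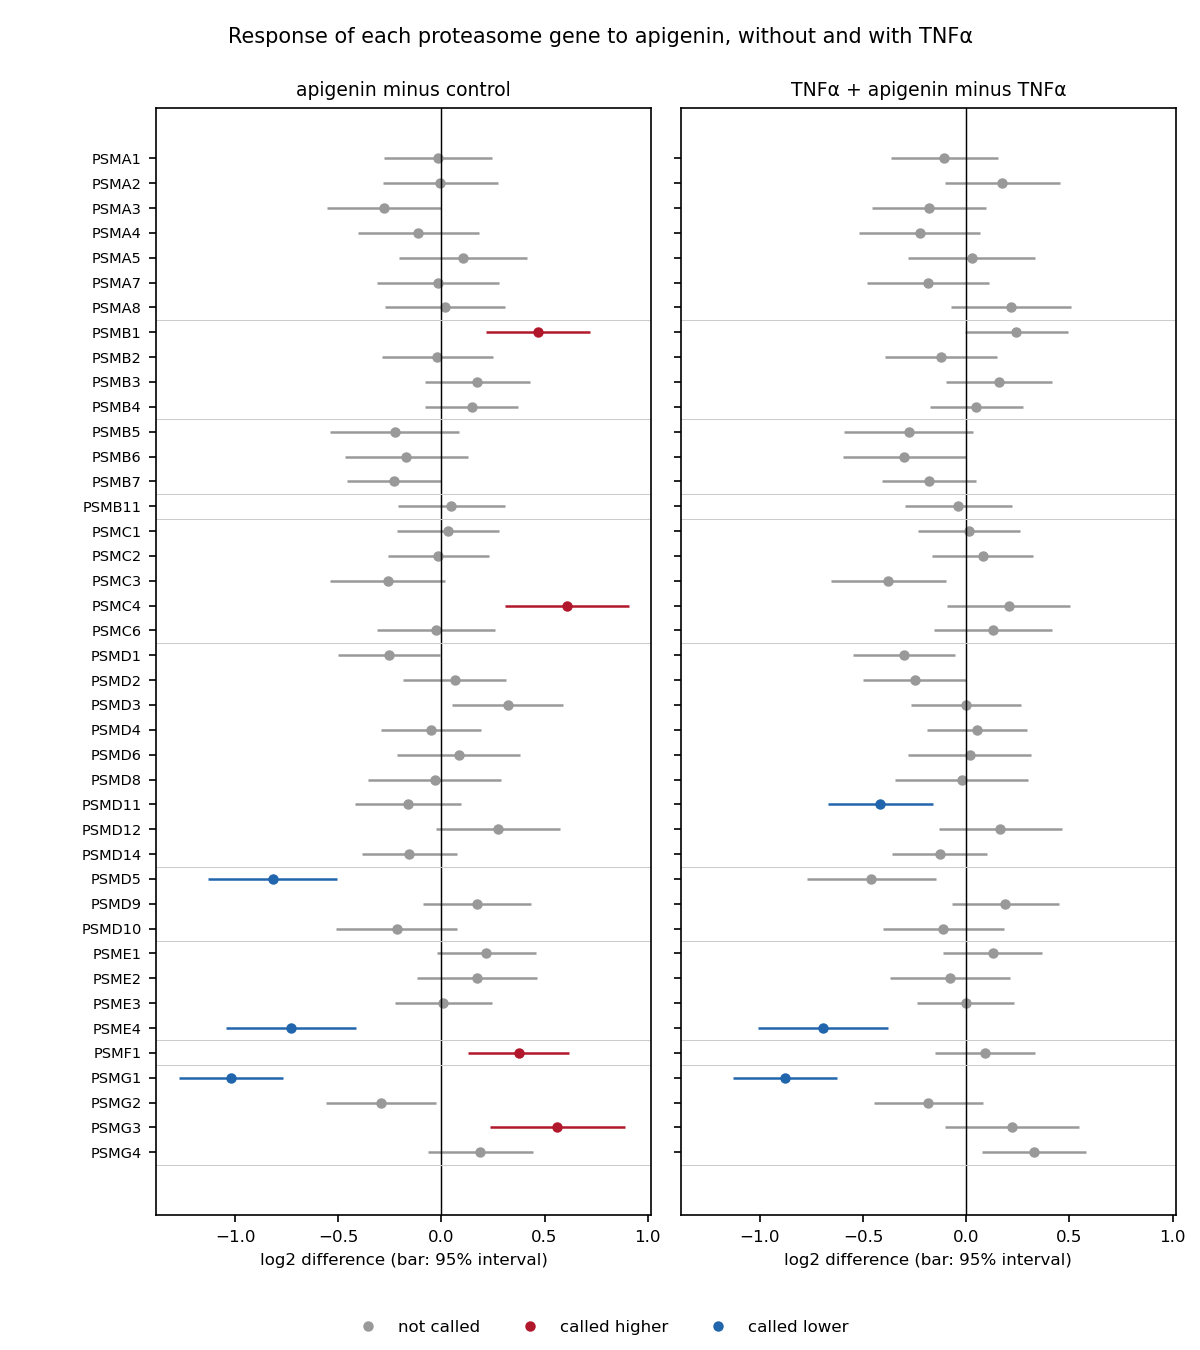
Log2 difference (point) with its 95% interval (bar) from the limma fit for each of the 41 proteasome genes, apigenin minus control in one panel and TNFα with apigenin minus TNFα alone in the other; red marks genes called higher and blue genes called lower at an adjusted p below 0.05. PSMG1 is farthest from 0 in both panels, at -1.02 and -0.88, and the catalytic subunits lie between -0.17 and -0.30.

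The same question can be asked in cells that also received TNFα, with means of arrays that the first comparison did not contrast. Both comparisons share the estimate of the residual spread from all 12 arrays, and same-numbered arrays tended to deviate together. Their p-values are therefore not independent. With both agents against TNFα alone, 3 of the 41 genes were called (7.32%), all lower, against a background of 10.1% in either direction, 5.92% lower and 4.21% higher. They were PSMG1, PSME4 and the 19S subunit PSMD11. The median difference was -0.02 against -0.01 over all genes. There were 8 of the 41 genes at an unadjusted p below 0.05 (19.5%), against 21.8% of all genes. The arrays did not overlap for 12 of the 41 genes (29.3%), against 26.2% of all genes.

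PSMG1 was at 8.17, 8.19 and 8.11 with TNFα and at 7.32, 7.24 and 7.26 with both agents. The groups stood far apart, as without TNFα. PSMG1 fell by 0.88 on the log2 scale (SE 0.12; 95% interval -1.13 to -0.63; limma adjusted p = 0.000423). PSME4 was at 7.04, 7.13 and 7.35 with TNFα and at 6.44, 6.30 and 6.70 with both, again without overlap. PSME4 fell by 0.70 (SE 0.15; 95% interval -1.01 to -0.38; limma adjusted p = 0.00796). This call was lost without all arrays of replicate number 1 or of number 2 (adjusted p up to 0.151). With the small nucleolar RNA median as a covariate (5.13, 5.96 and 4.75 with TNFα and 5.86, 5.85 and 5.90 with both), PSMG1 was the 1 gene of the 41 still called, and PSME4 had an adjusted p of 0.0756.

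PSMD11, a scaffold subunit of the 19S lid, was at 9.04, 8.65 and 8.89 with TNFα and at 8.42, 8.50 and 8.41 with both. The control arrays, at 8.48, 8.43 and 8.41, lay among the arrays with both agents. PSMD11 fell by 0.42 (SE 0.12; limma adjusted p = 0.0408). The call was lost without TNFα replicate 1 (-0.32, adjusted p = 0.171) or 3 (adjusted p = 0.106) and without replicate 1, 2 or 3 of the combined group (adjusted p = 0.124, 0.0787 and 0.11).

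The other genes called with apigenin alone had smaller differences of the same sign in the presence of TNFα. PSMD5 differed by -0.46 (limma adjusted p = 0.0629), from 7.10 ± 0.15 with TNFα to 6.64 ± 0.17 with both (SD, n = 3 each). PSMC4 differed by 0.21, PSMG3 by 0.22, PSMB1 by 0.24 and PSMF1 by 0.09, none of which was called (limma adjusted p = 0.461, 0.464, 0.249 and 0.746). The catalytic subunits PSMB5, PSMB6 and PSMB7 differed by -0.28, -0.30 and -0.18 (limma adjusted p = 0.297, 0.227 and 0.376). Over the 41 genes, 32 had the same sign in both apigenin comparisons (78.0%), against 68.5% of all genes. PSMG1 and PSME4 were called in the same direction in both, which is 2 of 41 genes (4.88%) against 6.74% of all genes.

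**Figure D3:**
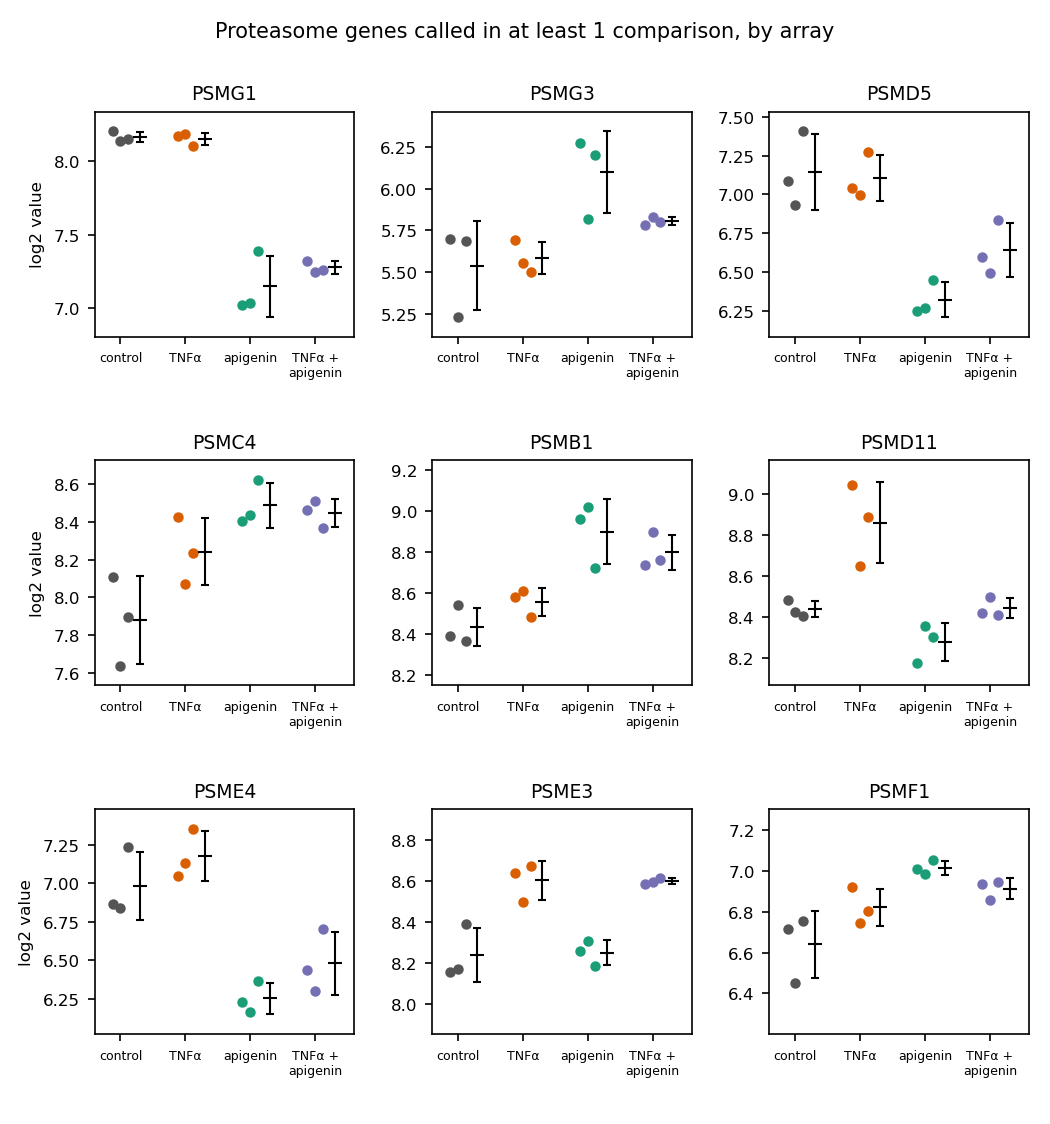
Deposited log2 value on each array (points) with the group mean and SD (bars, n = 3) for 9 proteasome genes in control, TNFα, apigenin and combined-treatment cells; axes do not start at 0. PSMG1, PSMD5 and PSME4 sit lower in both groups with apigenin, and PSME3 sits higher in both groups with TNFα.

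Averaging the apigenin response over both states of TNFα, a comparison added after the values were seen, called 10 of the 41 genes (24.4%) against a background of 20.2%. Of these, 4 were higher (background 8.50%) and 6 lower (background 11.7%). PSMG1 fell by 0.95, PSME4 by 0.71 and PSMD5 by 0.64 on the log2 scale (limma adjusted p = 4.14e-06, 0.000238 and 0.000527). The lid and base subunits PSMD11 and PSMD1 fell by 0.29 and 0.28 and the ATPase PSMC3 by 0.32 (limma adjusted p = 0.0253, 0.0253 and 0.0238). PSMC4, PSMG3, PSMB1 and PSMG4 rose by 0.41, 0.39, 0.35 and 0.26 (limma adjusted p = 0.00904, 0.0182, 0.00677 and 0.042). The catalytic subunits were not called here either, with differences of -0.25, -0.24 and -0.20 for PSMB5, PSMB6 and PSMB7 (limma adjusted p = 0.111, 0.119 and 0.0752).

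TNFα alone called none of the 41 proteasome genes, against a background of 0.997% (0.778% higher, 0.219% lower). At an unadjusted p below 0.05 there were 8 of the 41 (19.5%), against 11.6% of all genes, and the arrays did not overlap for 5 (12.2%) against 13.6%. With a mean-dependent and robust variance prior in limma, 2 genes were called, PSMD11 and PSME3. The share of all genes called under that prior is not given here, and the background above belongs to the main fit. These 2 calls therefore do not show a change particular to the proteasome genes. The median difference was 0.05 against 0.02 over all genes, with 26 positive and 15 negative values.

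PSMD11 had the lowest p, at 8.48, 8.43 and 8.41 in control against 9.04, 8.65 and 8.89 with TNFα. The groups did not overlap. The difference was 0.42 (SE 0.12; limma adjusted p = 0.137). The activator PSME3 was at 8.16, 8.17 and 8.39 in control and at 8.64, 8.50 and 8.67 with TNFα, without overlap, a difference of 0.36 (SE 0.11; limma adjusted p = 0.174). PSMC4 differed by 0.36 (limma adjusted p = 0.331), from 7.88 ± 0.23 to 8.24 ± 0.18 (SD, n = 3 each), with overlapping arrays. The control arrays are shared between this comparison and that of apigenin with control. PSMB5, PSMB6 and PSMB7 differed by 0.02, 0.08 and 0.01 (limma adjusted p = 0.981, 0.906 and 0.993), and the 95% intervals of all 41 genes lay between -0.62 and 0.68.

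In the presence of apigenin, TNFα again called none of the 41 genes against a background of 0.209%, with 2 at an unadjusted p below 0.05 (4.88% against 7.24%). The arrays did not overlap for 6 genes (14.6% against 14.1%). PSME3 had the lowest p, at 8.26, 8.31 and 8.18 with apigenin and 8.59, 8.60 and 8.62 with both agents, a difference of 0.35 (SE 0.11; limma adjusted p = 0.446). The PSME3 arrays did not overlap. Next by p were PSMD5, with a difference of 0.32, and PSMG3, with -0.30 (limma adjusted p = 0.682 and 0.727). Averaged over both states of apigenin, a comparison also added after the values were seen, PSME3 was higher by 0.36 (SE 0.08; limma adjusted p = 0.0333) and was the 1 gene called, 2.44% of the 41 against a background of 1.74% in either direction and 1.51% higher.

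With both agents against control, 5 of the 41 genes were called (12.2%), 2 higher and 3 lower, against a background of 12.5%, 7.15% higher and 5.37% lower. The arrays did not overlap for 18 of the 41 genes (43.9%), against 27.6% of all genes. PSMG1 fell by 0.89, PSMD5 by 0.50 and PSME4 by 0.50 (limma adjusted p = 0.000242, 0.0383 and 0.0392). PSMC4 rose by 0.57 and PSME3 by 0.36 (limma adjusted p = 0.0156 and 0.045). The count went to 2 without control replicate 1, to 3 without control replicate 2 and to 1 without replicate 1 or without replicate 2 of the combined group. PSMG1 kept its call in each of these fits. PSMC4 lost its call without control replicate 2 (adjusted p = 0.0677) and without replicate 1 or 2 of the combined group (adjusted p = 0.0544 and 0.0577). PSMD5 lost it without control replicate 1 or 3 (adjusted p = 0.0761 and 0.139) and without replicate 1 or 2 of the combined group (adjusted p = 0.116 and 0.137), and PSME4 without the same arrays (adjusted p = 0.0574, 0.141, 0.118 and 0.148). PSME3 lost it without control replicate 1 or 2 (adjusted p = 0.148 and 0.128) and without any 1 array of the combined group (adjusted p from 0.105 to 0.118), and under quantile normalization, where its difference was 0.22 (adjusted p = 0.194). In a fit of only these 6 arrays, PSMD5, PSME4 and PSME3 lost their calls (adjusted p = 0.083, 0.0835 and 0.101). The fit with the small nucleolar RNA median lost PSMD5 and PSME4 (adjusted p = 0.118 and 0.11). That median did not overlap between these 2 groups either, with the same limit.

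No proteasome gene was called for the interaction, the difference between the apigenin response with TNFα and that without it, against a background of 0.0535%. At an unadjusted p below 0.05 there were 0 of the 41 genes, against 4.23% of all genes. PSMC4 had the lowest p, with -0.40 (SE 0.20; 95% interval -0.83 to 0.02), followed by PSMD2, a 19S scaffold subunit, with -0.31 (SE 0.16) and PSMD3 with -0.32 (SE 0.18), each with a limma adjusted p of 0.999. The intervals of the 41 genes ran from -0.83 to 0.80, with a median SE of 0.18. A difference between the responses that lay inside a gene's interval was not excluded for that gene.

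The genes that work beside the proteasome were read from 5 further lists, of which 58 of 72 genes were measured. The lists were chosen with earlier results of these data known. Their shares beside the background are therefore a description and not a test of the lists. Apigenin alone called 7 of these 58 higher (12.1%, against 4.55% of all genes) and 4 lower (6.90% against 6.83%). With both agents against TNFα, 3 were higher (5.17% against 4.21%) and 4 lower (6.90% against 5.92%). TNFα alone called 1 higher (1.72% against 0.778%). Between both agents and control, 14 were higher (24.1% against 7.15%) and 2 lower (3.45% against 5.37%). Neither the interaction nor TNFα in the presence of apigenin called any.

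Among 15 proteins that bind or regulate the proteasome, 4 rose with apigenin alone (26.7%, against 4.55% of all genes) and none fell (against 6.83%), and the median difference was 0.32 against -0.02 over all genes. MIDN, which carries nuclear proteins to the proteasome without ubiquitin, was at 4.56, 4.38 and 4.84 in control and at 6.03, 5.87 and 6.12 with apigenin. Its groups were more than 1 log2 unit apart. MIDN rose by 1.42 (SE 0.13; limma adjusted p = 2.49e-05), and by 0.89 with both agents against TNFα (limma adjusted p = 0.00105). ADRM1, a ubiquitin receptor of the 19S cap, was at 7.87, 7.76 and 7.84 in control and 8.38, 8.23 and 8.36 with apigenin, without overlap. ADRM1 rose by 0.50 (SE 0.12; limma adjusted p = 0.0139), a call lost without apigenin replicate 1 (0.47, adjusted p = 0.0588). It also rose by 0.48 with both agents against TNFα (limma adjusted p = 0.0196), a call lost without TNFα replicate 3 (adjusted p = 0.0828) and without replicate 1 or 2 of the combined group (adjusted p = 0.0831 and 0.0552).

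ZFAND2A, a stress-induced proteasome partner, rose by 0.64 with apigenin (limma adjusted p = 0.0122), a call lost without apigenin replicate 3 (adjusted p = 0.0529). PITHD1 rose by 0.55 (limma adjusted p = 0.0222), which was lost without control replicate 1 (adjusted p = 0.088) and without apigenin replicate 1, 2 or 3 (adjusted p = 0.0616, 0.0513 and 0.0718). POMP, the maturation factor of the 20S core, was at 9.16, 9.07 and 9.06 in control and 8.99, 8.86 and 9.03 with apigenin, and SEM1, a small 19S subunit, differed by 0.38, neither of which was called (limma adjusted p = 0.522 and 0.127). Between both agents and control, 8 of the 15 rose (53.3%, against 7.15% of all genes). Of these, MIDN kept its call in all 17 alternatives and ZFAND2A in 16 of 17. ADRM1 lost its call in each of the 6 fits without 1 array (adjusted p from 0.0538 to 0.101). It also lost it under quantile normalization and with the small nucleolar RNA median as covariate (adjusted p = 0.0863 and 0.0957). SEM1 rose there by 0.60 (limma adjusted p = 0.0147), a call lost without control replicate 2 (adjusted p = 0.0633) and without replicate 3 of the combined group (adjusted p = 0.0573). AKIRIN2, which imports proteasomes into the nucleus, rose by 0.70 (limma adjusted p = 0.0136), lost without control replicate 1 (adjusted p = 0.0632).

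Of 12 measured genes that govern transcription of proteasome genes, 1 rose (8.33%, against 4.55% of all genes) and 3 fell (25% against 6.83%) with apigenin alone. NFE2L1, the inducer of proteasome genes, was at 7.52, 7.60 and 7.79 in control and 7.47, 7.10 and 7.43 with apigenin. Its difference of -0.30 was not called (limma adjusted p = 0.182). NFE2L2, the oxidative stress factor, was at 6.32, 6.10 and 6.50 in control and 5.55, 5.88 and 5.55 with apigenin, without overlap. NFE2L2 fell by 0.65 (SE 0.14; limma adjusted p = 0.00672), a call lost without all arrays of replicate number 1 or of number 3 (adjusted p up to 0.184). Its difference with both agents against TNFα was -0.18 (limma adjusted p = 0.527), and the difference between these responses, 0.47, was not called (limma adjusted p = 0.999).

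NFE2L3, a related factor, was at 6.92, 6.85 and 7.05 in control, 7.57, 7.72 and 7.50 with TNFα, 6.46, 6.02 and 6.16 with apigenin, and 6.62, 6.45 and 6.20 with both. Both groups with apigenin were below control and TNFα. NFE2L3 fell by 0.72 with apigenin (SE 0.14; limma adjusted p = 0.00467), a call lost without all arrays of replicate number 2 or of number 3 (adjusted p up to 0.056). It fell by 1.18 with both agents against TNFα (limma adjusted p = 0.000221). TNFα alone raised it by 0.66 (limma adjusted p = 0.0488), a call lost when any 1 of the 6 control and TNFα arrays was left out (adjusted p from 0.0542 to 0.175). OGT, the glycosyltransferase that modifies regulators of NFE2L1, was at 7.53, 7.41 and 7.65 in control and 6.79, 7.13 and 7.07 with apigenin, without overlap. OGT fell by 0.54 (limma adjusted p = 0.019), which was lost without control replicate 1 or 3 (adjusted p = 0.0532 and 0.0699) and without apigenin replicate 1 (adjusted p = 0.096). In the combined group against TNFα it fell by 0.72 (limma adjusted p = 0.00401). NFYA, the subunit of NF-Y that reads CCAAT, rose by 0.43 with apigenin (limma adjusted p = 0.0369), a call lost when any 1 of the 6 arrays was left out (adjusted p from 0.0588 to 0.137). Between both agents and control NFYA was also called higher. That call was kept in 15 of 17 alternatives, among them all 6 fits without 1 array, with differences from 0.50 to 0.74. With the small nucleolar RNA median as covariate, the apigenin calls of NFE2L2, OGT, NFYA, ADRM1 and PITHD1 were lost (adjusted p = 0.0878, 0.188, 0.127, 0.154 and 0.0988), as were those of OGT and ADRM1 with both agents against TNFα (adjusted p = 0.0541 and 0.204).

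**Figure D4:**
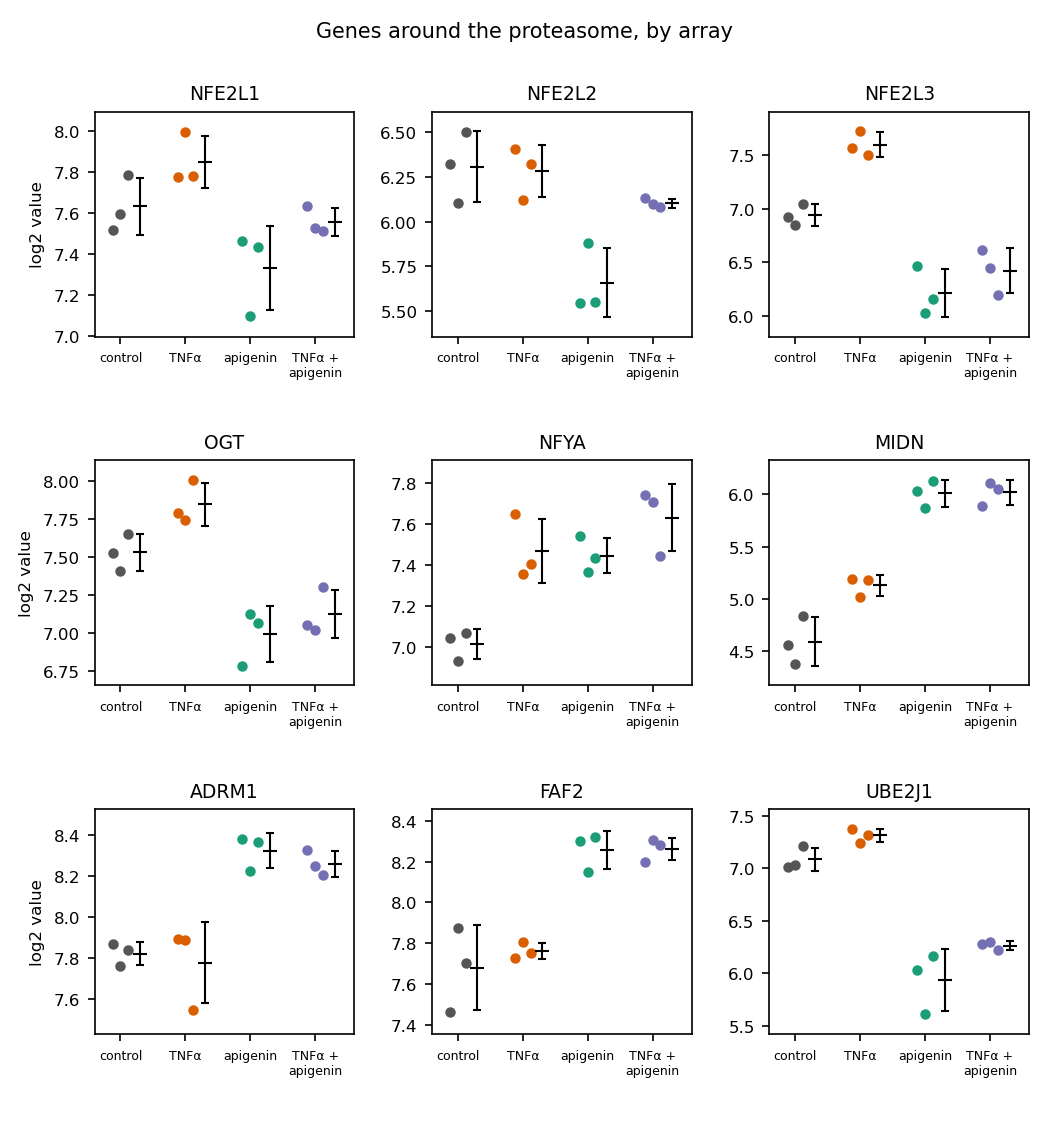
Deposited log2 value on each array (points) with the group mean and SD (bars, n = 3) for 9 genes around the proteasome in the 4 groups; axes do not start at 0. MIDN, ADRM1 and FAF2 sit higher and NFE2L3, OGT and UBE2J1 lower in both groups with apigenin than in control.

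Of 13 measured shuttle and extraction factors, 1 rose with apigenin alone (7.69%, against 4.55% of all genes). This was FAF2, an adaptor of the segregase VCP at the endoplasmic reticulum, at 7.46, 7.88 and 7.70 in control and 8.30, 8.15 and 8.32 with apigenin, without overlap. FAF2 rose by 0.58 (limma adjusted p = 0.00657), a call lost without all arrays of replicate number 1 or of number 3 (adjusted p up to 0.209). In the presence of TNFα it rose by 0.50 (limma adjusted p = 0.0176), a call lost without TNFα replicate 1 or 3 (adjusted p = 0.0664 and 0.0505) and without replicate 2 or 3 of the combined group (adjusted p = 0.0639 and 0.0549). The latter call was also lost with the small nucleolar RNA median as covariate (adjusted p = 0.1). Of 14 ubiquitin-conjugating enzymes, 1 rose and 1 fell, 7.14% each, which is near the 4.55% and 6.83% of all genes. UBE2J1, the conjugating enzyme of the endoplasmic reticulum, was at 7.01, 7.04 and 7.21 in control and 6.04, 5.61 and 6.17 with apigenin, without overlap. UBE2J1 fell by 1.15 (SE 0.14; limma adjusted p = 0.000158) and by 1.05 with both agents against TNFα (limma adjusted p = 0.000398). UBE2G1, another conjugating enzyme, rose by 0.45 with apigenin alone (limma adjusted p = 0.00966). This call was lost without all arrays of replicate number 1, of number 2 or of number 3 (adjusted p up to 0.162). None of the 4 measured genes for ubiquitin and its activation was called with apigenin alone. UBB, a polyubiquitin gene, fell by 0.49 with both agents against TNFα (limma adjusted p = 0.0328), a call lost without TNFα replicate 1 or 3 (adjusted p = 0.129 and 0.1) and without replicate 1 or 2 of the combined group (adjusted p = 0.153 and 0.0842). With the small nucleolar RNA covariate its difference was -0.39 (adjusted p = 0.238).

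The immunoproteasome subunits PSMB8, PSMB9 and PSMB10, which replace the catalytic subunits in inflamed tissue, differed by 0.08, 0.22 and 0.32 with TNFα alone, none called. With apigenin alone they differed by -0.31, -0.46 and -0.52, of which that of PSMB10 was called (limma adjusted p = 0.0445), a call lost in 5 of the 6 fits without 1 array: control replicates 1, 2 and 3 (adjusted p = 0.11, 0.098 and 0.0838) and apigenin replicates 1 and 2 (adjusted p = 0.141 and 0.153). In the combined group against TNFα, PSMB8 differed by -0.30 (limma adjusted p = 0.197), and PSMB9 fell by 0.62 and PSMB10 by 0.53 (limma adjusted p = 0.0122 and 0.0434). PSMB9 lost this call without TNFα replicate 1 or replicate 2 of the combined group (adjusted p = 0.057 and 0.0598) or when the small nucleolar RNA median was fitted too (adjusted p = 0.13). PSMB10 lost it without any 1 of the 6 arrays other than TNFα replicate 3 (adjusted p from 0.0921 to 0.155). Averaged over both states of TNFα, all 3 fell, by 0.31, 0.54 and 0.52 (limma adjusted p = 0.0334, 0.00143 and 0.00325). That comparison was added after the values were seen, and it called 11.7% of all genes lower.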

How the data were processed

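RNA of 12 samples was read on 12 whole-transcript arrays of Affymetrix. The deposited values are on the log2 scale, 1 per probe set and array, and the submitters' processing notes credit them to Affymetrix Expression Console. Nothing used here gives its version, summary algorithm or background correction. The table held 53617 rows, of which the platform table gave 23871 a single symbol, 1842 several, and 27904 none here. Symbols were updated through the gene ID for 22569 rows, which changed 90 names. A row was kept where it reached its array's 25th percentile (1.60 to 1.64) on at least 3 arrays, and each gene was read from its row with the highest mean. PSMB2 and PSMD3 had 2 rows each. The second row of PSMD3, with a mean of 3.23, had a difference of -0.51 between both agents and TNFα, against -0.0002 in the row used. The second row of PSMB2, with a mean of 2.70, had 0.34 there, against -0.12 in the row used. The rows of each gene thus differed in this comparison.

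The values of 20572 genes were fitted with 4 group means in limma 3.58.1 (R 4.3.3; lmFit and eBayes, 8 residual degrees of freedom). Adjusted p-values are Benjamini-Hochberg values over all genes tested, with calls below 0.05. Intervals are 95% intervals of that fit. The number of arrays, 3 per group, limits the precision, and an exact test of 3 against 3 arrays cannot go below 0.1. Written out gene by gene were the called proteasome genes, the 3 with the lowest p where fewer were called, the catalytic subunits, ADRM1, SEM1, POMP, NFE2L1, NFE2L2 and up to 4 called genes per further list. PSMD9, PSMD10, PSMC3, PSMG2, PSMG4 and the other activators were named beside them for their role. Members, lists and rules were chosen with earlier results of these data known. The scripts were tested on simulated data. Alternatives changed the normalization, the filter, the row per gene, the arrays fitted, the variance prior, a covariate, a replicate block and the arrays left out.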

Additional observations from a re-analysis of the deposited data

How the results depend on the processing

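The numbers of called proteasome genes were recomputed under each alternative. The share of all genes called is not given beside them, so a changed count does not show a change particular to the proteasome genes. With TNFα and apigenin against TNFα, the count of 3 became 5 with quantile normalization, 5 with the replicate number as a block and 5 with a trended and robust variance prior. It became 1 with the small nucleolar RNA median as covariate. With apigenin against control, 7 became 4 in a fit of only the groups compared and 3 with that covariate, and with both agents against control, 5 became 2 in a fit of only the groups compared. With TNFα against control, 0 became 2 with the trended and robust prior and 1 when averaged over both states of apigenin. The cause was not tested.

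Leaving out arrays gave 1 to 6 called genes for apigenin against control, 1 to 3 for both agents against TNFα and 1 to 4 for both agents against control. The lowest values of the first 2 ranges came from leaving out the 4 arrays of 1 number (1, 4 and 3 genes for apigenin against control without numbers 1, 2 and 3). The other 3 comparisons stayed at 0 throughout. Fewer arrays were fitted in each of these. Of the proteasome genes called with apigenin against control, PSMG1 alone kept its call whichever number was left out. Losses of a call without a whole number are not written out above for every other gene.

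The replicate numbers were not taken as pairs. Same-numbered arrays deviated together with r from 0.02 to 0.46, and 13 of 18 pairs were over 0.1, while 11 of 12 arrays correlated best with one of their own number. With the block, apigenin against control called 8, both agents against control 7, and TNFα against control, both agents against apigenin and the interaction 0. The share of all genes called with the block is not given here either. These counts do not show a change particular to the proteasome genes.

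For named genes, 622 of 870 alternatives to a called value kept the call, 248 lost it and 0 turned its direction. Another 81 changed sign where neither value was called, and 19 gained a call. The interaction could not be fitted from only the groups compared.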
